A study of Mus musculus with 4 samples.

Results

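The genes described here code for the structural proteins of elastic fibres: elastin (Eln), the fibrillins Fbn1 and Fbn2, the microfibril-associated proteins Mfap2, Mfap4 and Mfap5, and the fibulins Fbln1, Fbln2, Fbln5 and Efemp1. They were taken by symbol from the deposited table, where all 10 were found among 48425 genes. The table holds 4 libraries of 1 group: mesothelial cells from the peritoneal cavity of C57BL/6 mice aged 10 weeks, labelled WT, 1 library for each of 4 animals. The cells were detached from the cavity wall with trypsin, sorted as CD45- Pdpn+ GPM6a+ and used freshly isolated, with no treatment, and total RNA was depleted of ribosomal RNA. The labels name neither sex nor batch. With 1 group, the questions the design allows are how high each gene stood, how far the animals differed, and how the genes ranked against one another.

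Elastic fibres are the extracellular structures that let skin, vessels, lung and serous membranes recoil after stretch. Secreted tropoelastin, the product of Eln, is deposited on a scaffold of fibrillin microfibrils. Fibulins and latent TGF-beta binding proteins bring the 2 parts together, and lysyl oxidases then cross-link elastin into an insoluble core. A layer of elastic fibres lies beneath the mesothelium, the single sheet of cells that covers the peritoneum and its organs.

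Levels are given as CPM (a gene's estimated count as a share of its library's column sum, scaled to 1000000), and ± is the SD over 4 animals. The columns summed to between 4090224 and 4569578 estimated counts. For a gene at 0, the upper limit set by 3 counts was 0.657 to 0.734 CPM in 1 library and 0.171 CPM over all 4 libraries. Floors and intervals cover counting error only. All 14 mesothelial markers, led by Upk3b and Krt19, stood above 1 CPM and together made up 17077 to 19127 CPM. Gpm6a and Pdpn, 2 of them, were used for the sort. Of the fibroblast markers 13 of 15 stood above 1 CPM and none was at 0. They summed to 15669 to 23380 CPM, led by Dcn (12889 ± 2116 CPM) and Col3a1 (2741 ± 917 CPM). Most of this sum was Dcn, and without it the sum was 4278 to 7882 CPM. The fibroblast markers that did not pass had means of 1.55 and 2.05 CPM. By animal, the median of log2(CPM + 0.5) was 6 to 6.72 over the fibroblast list, against 9.41 to 9.76 over the mesothelial list. Smooth muscle and pericyte markers reached 8 of 12 (sum 187 to 302 CPM, led by Acta2 and Smtn, with Lmod1 and Notch3 at 0), blood endothelial markers 3 of 10 (Cdh5, Emcn and Cldn5 at 0), lymphatic endothelial markers 0 of 6 (Mmrn1 and Reln highest, each below 1 CPM on average, and Lyve1, Flt4 and Ccl21a at 0) and leukocyte markers 2 of 12 (Itgam and Coro1a at 0). The marker counts are of genes that passed the test of a level above 1 CPM described below. Of all genes 24.7% passed it, and 50.9% of protein-coding genes. These libraries are bulk RNA, so fewer cells of a type and less RNA per cell cannot be told apart. Nor can marker RNA made by the sorted cells themselves be told from that of other cells.

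Of the 10 elastic fibre genes, 8 stood above 1 CPM: elastin, 1 of the 2 fibrillins, 2 of the 3 microfibril-associated proteins and all 4 fibulins. Efemp1, also called fibulin-3, was by far the highest, at 2782 ± 421 CPM, and ranked 32nd of all genes. Fbn2 and Mfap4 were at the limit of detection, with 3 and 4 estimated counts over all 4 libraries. Each of the 8 passed edgeR's quasi-likelihood test of a level above 1 CPM (one-sided, Benjamini-Hochberg adjusted over all genes, threshold 0.05), with adjusted p-values from 4.62e-41 for Efemp1 to 9.32e-22 for Mfap2. Of all genes tested 24.7% passed the same test, and 50.9% of the genes annotated as protein-coding. The median mean level was 133 CPM over the 10 genes, 2.88 CPM over protein-coding genes and 0 over all genes.

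**Figure D1:**
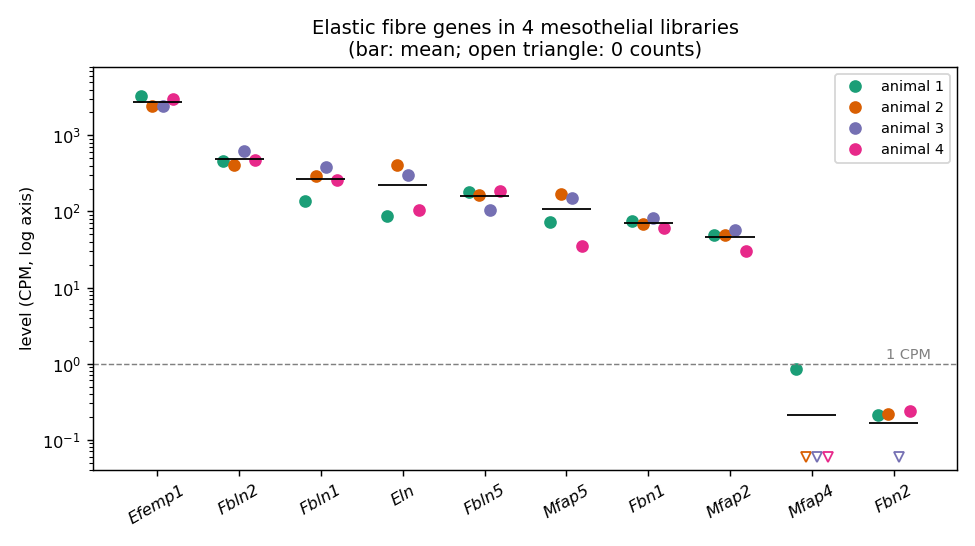
Level of each elastic fibre gene (CPM, log axis) in the libraries of animals 1 to 4 (points), with the mean over 4 animals (bar) and libraries at 0 as open triangles. Efemp1 lies between 2419 and 3273 CPM, 7 further genes lie between 30.3 and 616 CPM, and Mfap4 and Fbn2 lie below the dashed line at 1 CPM.

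Elastin itself varied more between animals than most of the others. Eln (ENSMUSG00000029675, chr5:134702593-134747323 on the minus strand of GRCm38) had 85.9, 408, 302 and 103 CPM in animals 1 to 4, a mean of 225 ± 157 CPM. Animals 2 and 3 were high and animals 1 and 4 low. The highest animal stood 4.75-fold above the lowest, and the counts behind these values were 393, 1785, 1374 and 422. On the scale of log2(CPM + 0.5) the SD over animals was 1.11, against 0.06 from Poisson counting alone. Eln was called above 1 CPM at an adjusted p of 5.34e-25. It shares 267 of its 8098 exon bases with Gm30003, an antisense gene on the opposite strand that was not analysed here.

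Among the microfibril genes, the fibrillins differed from one another and so did the microfibril-associated proteins. Fbn1 codes for fibrillin-1, the main fibrillin of adult microfibrils and the gene mutated in Marfan syndrome. It lies at chr2:125300594-125507993 on the minus strand and had 75.5, 67.4, 81.2 and 61.4 CPM in animals 1 to 4 (71.4 ± 8.75 CPM, adjusted p = 9.55e-25). The animals lay close together, the highest 1.32-fold above the lowest, and the SD of 0.18 on the log2 scale was the smallest of the 8 called genes. Fbn1 shares 2442 of its 12128 exon bases with Gm9913 on the opposite strand, which had 1.05 CPM in animal 1 and was at 0 in the others. The sources used here do not say if the reads were stranded.

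Fbn2 codes for fibrillin-2, which is known mostly from developing tissue. Animals 1 to 4 stood at 0.209, 0.219, 0 and 0.236 CPM: 1 count in each of 3 animals and none in animal 3. Its mean of 0.166 CPM rests on these 3 counts, and the test gave an adjusted p of 1. Fbn1 had 1261 counts to the 3 counts of Fbn2, a ratio of 420 with an exact 95% counting interval of 144 to 2041. Their longest transcripts, of 11971 and 11041 bases, are alike in length, and the log2 difference per kilobase was 6.65. It fell to 2.82 with median transcript lengths, since the median Fbn2 transcript has only 640.5 bases, and both values rest on the 3 counts of Fbn2 and the pseudocount.

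Mfap2 and Mfap5 code for the small microfibril-associated glycoproteins that bind fibrillin. Mfap2 (chr4:141010418-141015984, plus strand) had 49.0, 49.3, 56.9 and 30.3 CPM in animals 1 to 4, a mean of 46.4 ± 11.3 CPM. Animals 1, 2 and 3 were alike and animal 4 was low. Mfap5 (chr6:122505845-122529290, plus strand) had 72.8, 170, 150 and 34.8 CPM, a mean of 107 ± 63.6 CPM (adjusted p = 1.95e-22). Animals 2 and 3 were again the high ones, as for Eln, and the ratio of the highest to the lowest animal was 4.87.

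Mfap4 codes for a fibrinogen-related glycoprotein that binds elastin and fibrillin and is made largely by smooth muscle cells. Its gene lies at chr11:61485431-61488900 on the plus strand and had 0.849, 0, 0 and 0 CPM in animals 1 to 4. All 4 of its counts came from animal 1, where the exact 95% counting interval was 0.239 to 2.24 CPM, and the adjusted p was 1. Without animal 1 its level was 0. Mfap4 shares 89 of its 1922 exon bases with Mapk7 on the opposite strand, which had 42.7, 16.3, 26.1 and 16.9 CPM, also highest in animal 1. Any part of the Mapk7 reads in the Mfap4 counts was not tested.

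The fibulins carried most of the signal. Efemp1, a secreted glycoprotein of connective tissue that has been studied as a blood marker of mesothelioma, lies at chr11:28853204-28926743 on the plus strand. It had 3273, 2444, 2419 and 2990 CPM in animals 1 to 4 (2782 ± 421 CPM). Animals 1 and 4 were the higher pair, and the highest animal stood 1.35-fold above the lowest. Efemp1 alone made up 75.5%, 61.1%, 58.9% and 72.4% of the summed CPM of the 10 genes, a mean of 67.0 ± 8.20%. That sum was nearly level over animals, at 4335, 4000, 4108 and 4132 CPM. The other 9 genes together had 1062, 1557, 1690 and 1142 CPM, so animals 2 and 3 were the higher pair once Efemp1 was set aside.

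Fbln2, a fibulin of basement membranes and elastic tissue that binds fibrillin-1 and elastin, had 460, 406, 616 and 467 CPM in animals 1 to 4 (487 ± 90.1 CPM, chr6:91212455-91272540, plus strand). Animal 3 was the highest, at 1.52-fold above the lowest, and the gene ranked 281st in the table. Fbln1, which binds fibronectin and elastin, had 137, 292, 379 and 262 CPM (268 ± 100 CPM, chr15:85205949-85286535, plus strand). Here animal 1 was low, and the highest animal stood 2.78-fold above it. Fbln5, an integrin-binding fibulin without which elastic fibres form poorly in mice, had 182, 164, 105 and 183 CPM (158 ± 36.7 CPM, chr12:101746565-101819055, minus strand). Animal 3 was low for Fbln5 and high for Fbln1 and Fbln2. Adjusted p-values of the 3 genes ran from 2.2e-33 for Fbln2 to 8.12e-28 for Fbln5.

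The fibulin genes did not share one pattern over animals, and the promoters of the 3 fibulin genes with a usable window are shown to let the differing genes be compared: Efemp1 and Fbln5, which were highest in animals 1 and 4, and Fbln1, which was lowest in animal 1. The sequences are RefSeq promoter windows on GRCm38.p6, cut to the bases before the first annotated exon and written 5′ to 3′ on the gene's strand. They are chr11:28852955-28853203 (plus strand) for Efemp1, chr12:101819120-101819369 (minus strand) for Fbln5 and chr15:85205699-85205948 (plus strand) for Fbln1. Capitals mark matches to any of 5 motifs searched on both strands. They were TATAAA of the TATA box, the CCAAT box, the Sp1 motif GGGCGG, the AP-1-like pattern TGANTCA and the TEAD motif GGAATG. The N in TGANTCA is any base, so the pattern is looser than the AP-1 motif itself.
Efemp1: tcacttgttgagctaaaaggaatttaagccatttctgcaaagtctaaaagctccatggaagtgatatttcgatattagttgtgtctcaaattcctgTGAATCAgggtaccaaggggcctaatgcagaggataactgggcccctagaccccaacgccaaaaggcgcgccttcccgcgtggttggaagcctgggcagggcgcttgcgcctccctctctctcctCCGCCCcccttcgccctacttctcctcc
Fbln5: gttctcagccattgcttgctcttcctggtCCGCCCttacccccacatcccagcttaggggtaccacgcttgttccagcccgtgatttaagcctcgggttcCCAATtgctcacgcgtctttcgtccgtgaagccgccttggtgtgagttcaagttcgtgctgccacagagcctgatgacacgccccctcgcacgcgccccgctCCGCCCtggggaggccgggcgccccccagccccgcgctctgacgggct
Fbln1: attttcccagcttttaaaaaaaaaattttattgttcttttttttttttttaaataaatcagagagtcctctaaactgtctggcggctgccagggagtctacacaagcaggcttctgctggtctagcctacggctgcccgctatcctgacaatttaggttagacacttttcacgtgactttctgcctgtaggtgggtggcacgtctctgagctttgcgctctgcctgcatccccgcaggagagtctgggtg
In the Efemp1 window the capitals are 1 TGANTCA match on the plus strand and 1 GGGCGG match on the minus strand, written as its reverse complement. The TGANTCA match has A at the N. The Fbln5 window holds 1 CCAAT match and 2 GGGCGG matches on the minus strand. The Fbln1 window holds none of the 5 motifs, which says only that these letters are not in this window. Among 32851 promoter windows of 250 bases, 32.7% held GGGCGG, 33.9% CCAAT, 12.4% TATAAA, 12.6% GGAATG and 6.75% TGANTCA. The GC content was 53.4% for Efemp1, 65.2% for Fbln5 and 46.4% for Fbln1, against a median of 52.4% over all windows. Fbln5 had 21 CpG dinucleotides, Efemp1 10 and Fbln1 7, against a median of 6. The tables used here hold promoter windows for 6 of the 10 genes, none of them for Eln, Fbn2, Mfap4 or Mfap5. The windows of Fbn1 and Fbln2 lie inside annotated exons and are not printed.

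Genes of different length can be compared only per length, so CPM were divided by the length in kilobases of each gene's longest GENCODE M21 transcript. On this scale Efemp1 stood at 1365 ± 207 CPM per kb and was followed by Fbln2 at 102, Fbln1 at 73.1, Eln at 58.3, Mfap2 at 43.2, Mfap5 at 42.9, Fbln5 at 27.2 and Fbn1 at 5.96 CPM per kb. Efemp1 was 13.5-fold above Fbln2 (a mean within-animal log2 difference of 3.75, SD 0.38, in the same direction in 4 of 4 animals), and 3.75-fold above it with median transcript lengths. Fbln5 was 4.46-fold above Fbn1 at the other end (log2 difference 2.16, SD 0.52, 4 of 4 animals), and 9.01-fold with median lengths. Between these ends neighbouring genes were not separated beyond their spread. The 5 steps from Fbln2 down to Fbln5 had mean log2 differences of 0.15 to 0.55. Each was smaller than its own SD over animals of 0.56 to 1.32. Genes farther apart in the order could still differ. Fbln2 had 96, 85, 129 and 98 CPM per kb in animals 1 to 4, against 31, 28, 18 and 31 for Fbln5. These values take the deposited counts as not yet scaled for length, which the sources used here do not state. Per kilobase Efemp1 made up 79.2 ± 6.75% of the 10 genes' sum.

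The places from the 3rd to the 7th in this order depended on the transcript length used. The longest Mfap5 transcript, 2491 bases, is annotated as a retained intron, and its longest coding transcript has 1506 bases. With the longest coding transcripts, an alternative chosen after the values had been seen, Mfap5 rose to 70.9 CPM per kb and took the 4th place ahead of Eln. With median transcript lengths Mfap5 took the 3rd place, Fbln1 the 4th and Eln the 5th. Fbln5, at the 6th place, then passed Mfap2, at the 7th. Efemp1 and Fbln2 kept the first 2 places and Fbn1 the last under all 3 lengths.

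**Figure D2:**
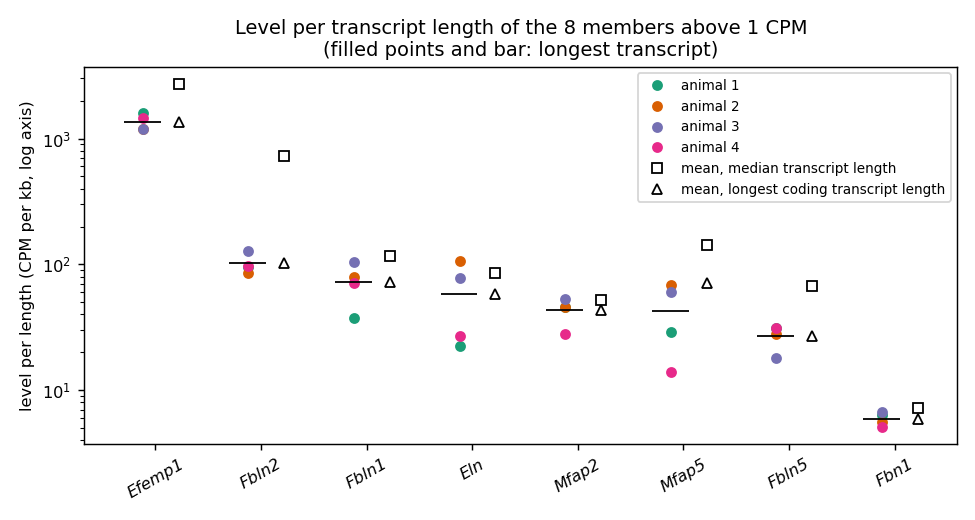
Level per transcript length (CPM per kb, log axis) of the 8 elastic fibre genes above 1 CPM; points are animals and the bar their mean with the longest transcript, squares and triangles the mean with the median transcript and the longest coding transcript. Efemp1 is highest and Fbn1 lowest with every length, while the squares place Mfap5 3rd.

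Related genes were also compared as pairs within each animal, with an exact sign-flip permutation test over the 9 pairs that were set up. With 4 animals this two-sided test cannot give a p below 0.125, so no pair can pass a threshold of 0.05, with or without adjustment for 9 pairs. Per kilobase Fbn1 lay below Eln in 4 of 4 animals, with log2 differences of -1.82, -4.23, -3.52 and -2.38 (mean -2.99, SD 1.09, exact p = 0.125). The gap was widest in animals 2 and 3, where Eln was high. Fbln5 lay below Efemp1 in 4 of 4 animals, by a mean log2 difference of -5.67 (SD 0.27), and Fbln1 below Fbln2 in 4 of 4 by a mean of -0.55 (SD 0.56), both at exact p = 0.125. For Fbln1 and Fbln2 the mean difference was about as large as its spread, since animal 1 gave -1.36 and animal 2 gave -0.09. With median transcript lengths it was -2.70, the median Fbln2 transcript having 669 bases.

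Mfap2 and Mfap5 could not be ranked. Their log2 difference per kilobase was 0.65, -0.56, -0.18 and 1.02 in animals 1 to 4, above 0 in 2 of 4 (mean 0.23, SD 0.73, exact p = 0.625). It turned to -0.49 with the longest coding transcripts and to -0.028 without animal 4. Mfap4 lay far below Mfap5, with 4 counts to 1900, a count ratio of 0.0021 with an exact 95% counting interval of 0.00057 to 0.0054.

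How far the animals differed set the 8 called genes apart from one another. The SD of log2(CPM + 0.5) over animals was 1.11 for Eln, 1.05 for Mfap5 and 0.63 for Fbln1, then 0.39 for Mfap2, 0.38 for Fbln5, 0.25 for Fbln2, 0.22 for Efemp1 and 0.18 for Fbn1. Their median of 0.39 lay near the 0.43 of the 13721 genes with a mean of at least 1 CPM, and 3 of the 8 lay above it. The spread falls as the level rises, so each gene was also read beside genes of like level. The middle 50% of 1609 genes between 100 and 1000 CPM had an SD of 0.14 to 0.32, which Eln, Mfap5, Fbln1 and Fbln5 exceeded. The middle 50% of 7054 genes between 10 and 100 CPM had 0.24 to 0.53, with Mfap2 inside and Fbn1 below. Efemp1, at 0.22, lay close to the median of the 129 genes above 1000 CPM, which was 0.23. Poisson counting alone gave 0.01 for Efemp1 to 0.10 for Mfap2, below the observed spread of each of the 8.

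**Figure D3:**
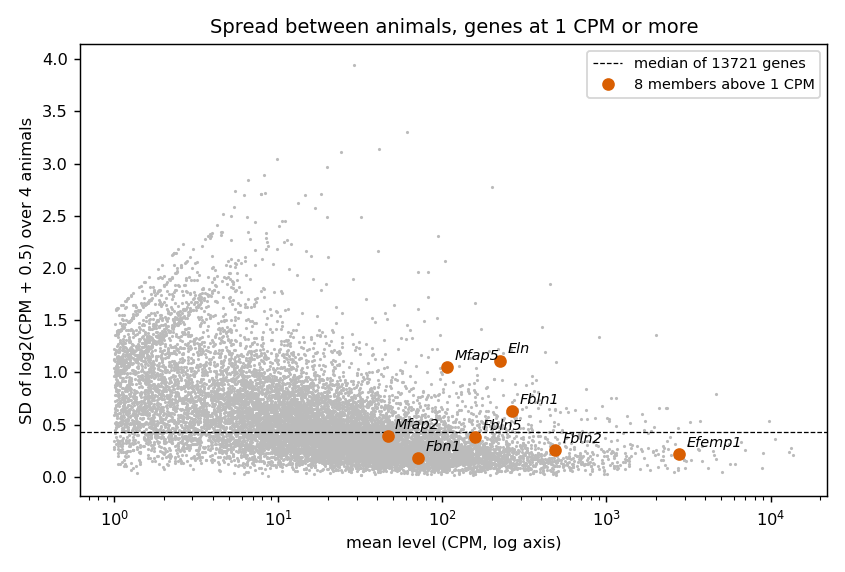
SD of log2(CPM + 0.5) over 4 animals against mean level (CPM, log axis) for 13721 genes with a mean of at least 1 CPM (grey) and the 8 elastic fibre genes above 1 CPM (orange); the dashed line is the median SD over all 13721 genes, 0.43. Eln and Mfap5 lie above 1, higher than most genes of like level, and Efemp1 and Fbn1 lie below 0.25.

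The deviations of the 8 genes from their own means fell along different animals. Eln, Mfap5, Fbln1 and Mfap2 had their 2 highest values in animals 2 and 3, which makes 4 of the 8, and the same held for 3617 of 13721 genes at 1 CPM or more (26.4%). For Mfap2 animal 1 was nearly as high as animal 2. Efemp1 and Fbln5 had their 2 highest values in animals 1 and 4, and Fbn1 and Fbln2 were highest in animal 3. By the root mean square distance between deviations on the log2 scale, the closest genes were Fbn1 and Fbln2 (0.16), Fbn1 and Mfap2 (0.22) and Fbln5 and Efemp1 (0.23). Eln lay nearest to Mfap5 (0.49) and farthest from Fbln5 (1.19). These distances are not scaled for spread, so genes that vary little lie close whatever their order of animals. Fbn1 and Efemp1 lay at 0.27, though animal 3 was the highest for Fbn1 and the lowest for Efemp1. All distances are over 4 libraries and are given as a description.

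Genes listed as markers of other cell types moved over the animals too. The summed fibroblast markers had 15933, 23380, 20639 and 15669 CPM in animals 1 to 4, highest in animals 2 and 3 like Eln and Mfap5, and without Dcn they had 4972, 7882, 6932 and 4278 CPM. The markers did not move as one: 8 of 15 had their 2 highest values in animals 2 and 3, and the median of log2(CPM + 0.5) over the list was 6.46, 6.72, 6.15 and 6.00, with animal 3 below animal 1. The mesothelial sum was 17505, 19127, 17077 and 17482 CPM, highest in animal 2, and 7 of 14 mesothelial markers had their 2 highest values in animals 2 and 3. The 2 most abundant differed: Krt19 had 1749, 3120, 3091 and 1239 CPM, and Upk3b 4448, 3920, 3990 and 4184 CPM. Smooth muscle and pericyte markers summed to 302, 232, 280 and 187 CPM, highest in animal 1. Blood endothelial markers summed to 388 to 425 CPM, nearly all from Esam and Kdr, and lymphatic endothelial ones to between 0 and 1.48 CPM. Leukocyte markers summed to 44.4 to 60.9 CPM, of which Csf1r (34.5 CPM) and Cd68 (12.5 CPM) were the most abundant. RNA of these markers made by other cells cannot be told apart here from RNA made by the sorted mesothelial cells themselves. The part of other cells in the levels of Eln, Mfap5 and the other elastic fibre genes was not tested.

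**Figure D4:**
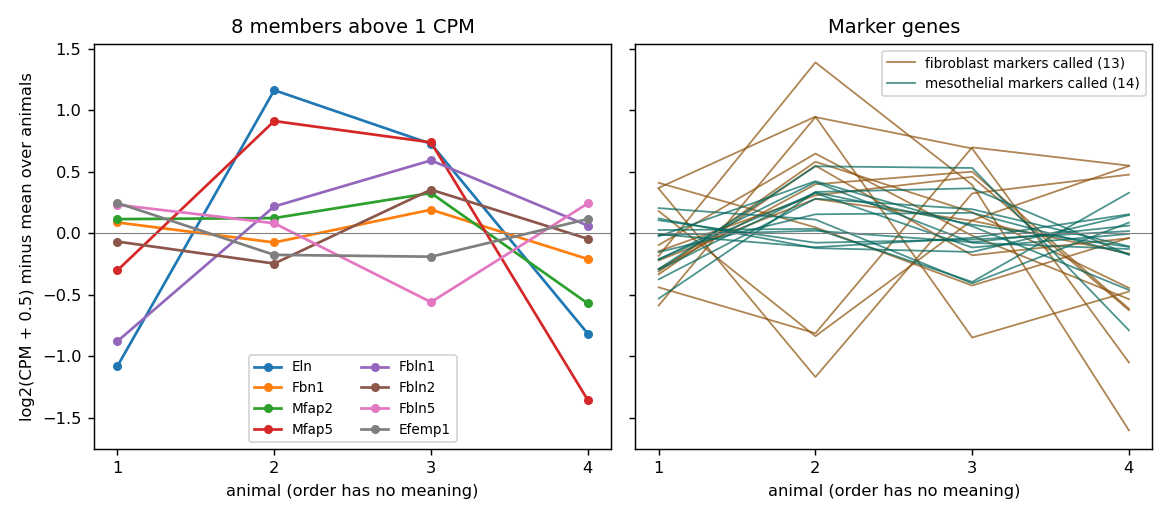
Deviation of log2(CPM + 0.5) from each gene's mean over 4 animals, by animal, for the 8 elastic fibre genes above 1 CPM (left) and the called fibroblast and mesothelial markers (right); the order of animals has no meaning. Eln and Mfap5 lie 0.73 to 1.16 above their means in animals 2 and 3, Efemp1 stays within 0.25 of 0, and in animals 2 and 4 some fibroblast markers deviate by more than 1.

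The genes whose levels over the animals were most like those of Efemp1, among 8784 other genes with a mean of at least 10 CPM, were Csrnp1, Pafah1b1 and Tma16. Their root mean square distances were 0.011, 0.018 and 0.019 on the log2 scale. Csrnp1 had 143, 106, 103 and 129 CPM, the same order of animals as Efemp1. In all, 218 genes lay within 0.1 of Efemp1, so the 3 nearest are a small part of a large group.

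RNA was also found for most of the listed genes of elastic fibre assembly and cross-linking, some of which act on other matrix proteins as well. Of 22 genes for assembly and cross-linking, 17 stood above 1 CPM, with a median mean level of 22.8 CPM over all 22. The highest were Tgm2, a transglutaminase that cross-links extracellular proteins (380 ± 110 CPM), Bgn, the small proteoglycan biglycan (272 ± 118 CPM), and Fkbp10, a collagen and elastin chaperone of the endoplasmic reticulum (197 ± 28.6 CPM). Bgn was high in animal 2 (443 CPM, the others 171 to 238 CPM). No count was found for Emilin3 or Tll2.

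Both lysyl oxidases most tied to elastin were called. Lox had 28.1, 34.1, 39.1 and 30.9 CPM in animals 1 to 4 (33.0 ± 4.71 CPM), and Loxl1, which keeps elastic fibres renewed in adult tissue, had 103, 180, 138 and 127 CPM (137 ± 32.3 CPM). Per kilobase Lox lay below Loxl1 in 4 of 4 animals, by a mean log2 difference of -2.54 (SD 0.26, exact p = 0.125). Efemp2, the fibulin-4 that recruits lysyl oxidase to elastin, had 94.8, 109, 148 and 146 CPM (124 ± 26.5 CPM). Fbln5 lay below Efemp2 per kilobase in 4 of 4 animals (mean log2 difference -0.81, SD 0.61, exact p = 0.125), with longest transcripts of 5829 and 2634 bases. Before division by length the mean log2 difference was 0.34 the other way (exact p = 0.375), and in animal 3 Fbln5 was still the lower gene.

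Of 14 genes for latent TGF-beta binding, TGF-beta and ADAMTS or ADAMTS-like proteins of microfibrils, 11 stood above 1 CPM (median 28.7 CPM over the 14). Ltbp4, the latent TGF-beta binding protein that works with fibulin-5 in elastin assembly, led with 448, 496, 580 and 464 CPM in animals 1 to 4 (497 ± 58.7 CPM). The growth factor Tgfb3 (144 ± 16.7 CPM) and Ltbp3, which holds latent TGF-beta in the matrix (135 ± 15.9 CPM), came next. Ltbp1 was low, with 10.4, 14.5, 22.6 and 19.6 CPM. Ltbp4 lay above Ltbp1 per kilobase in 4 of 4 animals, with log2 differences of 5.68, 5.36, 4.96 and 4.84 (mean 5.21, SD 0.38, exact p = 0.125). Adamtsl2 had no count.

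Of 12 genes listed under receptors for elastic fibre proteins, genes of a lysosomal complex included, 10 were called (median 19.7 CPM). Ctsa and Glb1, whose products belong to the lysosomal complex that also yields the elastin-binding protein at the cell surface, had 158 ± 2.51 and 91.3 ± 7.89 CPM. Values per gene do not show if the elastin-binding protein was made. Ctsa was nearly the same in every animal, at 155, 161, 159 and 159 CPM. Itgb1, the integrin chain shared by many matrix receptors, had 157 ± 36.4 CPM and was high in animal 3.

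Of 13 elastase genes in the table, 4 stood above 1 CPM. That share lies above the 24.7% of all genes and below the 50.9% of protein-coding genes. The 4 were the lysosomal cathepsin Ctsl (811 ± 90.5 CPM), the membrane metalloproteinase Mmp14 (68.5 ± 25.5 CPM), the cathepsin Ctsk (33.0 ± 7.15 CPM) and Cela1 (23.3 ± 13.6 CPM). Cela1 was named after its values were seen, to complete the 4. The neutrophil proteases Elane and Ctsg, and Cela2a and Mmp7, were at 0 in all libraries. The median over the 13 genes was 0.416 CPM.

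Among 12 inhibitor genes 7 were called (median 178 CPM). Slpi, the secretory leukocyte protease inhibitor that blocks neutrophil elastase, had 13436, 9115, 5651 and 10955 CPM (9789 ± 3278 CPM), high in animal 1 and low in animal 3. Cst3, the cathepsin inhibitor cystatin C, had 1081 ± 181 CPM and Serpinb1a, an intracellular inhibitor of neutrophil proteases, 617 ± 170 CPM. The antitrypsin genes Serpina1a, Serpina1b and Serpina1c, which are expressed mostly in liver, were at 0. The 5 lists are described by these counts beside the 24.7% of all genes and 50.9% of protein-coding genes that passed the same test.

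**Figure D5:**
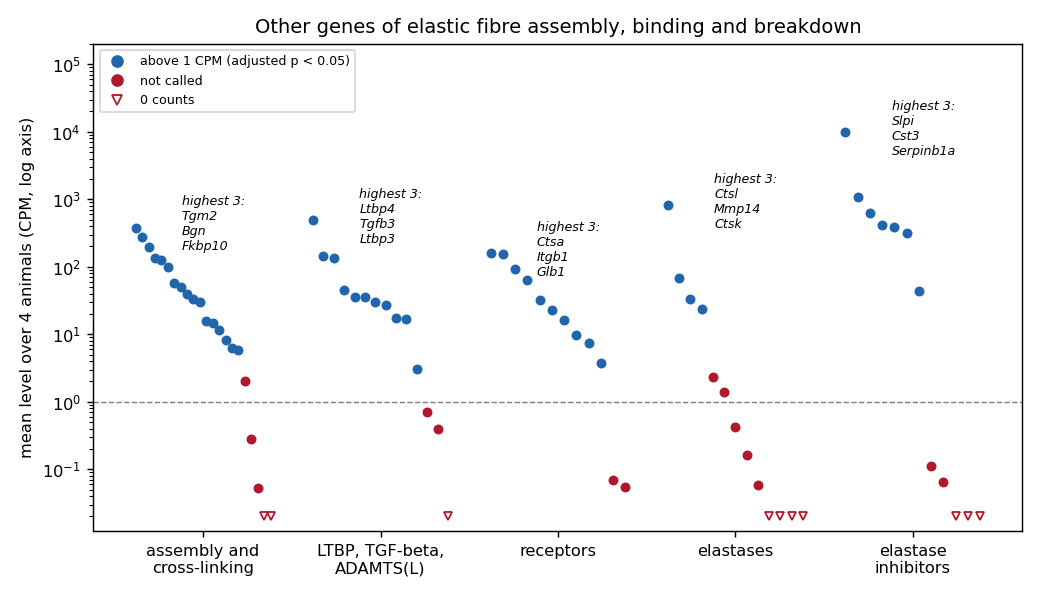
Mean level over 4 animals (CPM, log axis) of each gene in 5 lists of elastic fibre biology, ordered by level within a list; blue points passed the test of a level above 1 CPM, red points did not, and open triangles had no count. Called genes number 17 of 22 for assembly and cross-linking, 11 of 14 for latent TGF-beta and ADAMTS proteins, 10 of 12 for receptors, 4 of 13 for elastases and 7 of 12 for inhibitors.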

How the data were processed

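RNA-seq was analysed in the sorted mesothelial cells of 4 animals, 1 library each. The values the authors deposited are estimated counts per gene (expected counts, not whole numbers), 1 column per animal. Per the submitters' processing notes the tools were edgeR 3.24.3, limma 3.38.3 and kallisto 0.43.1 and the genome build GRCm38.p5, without the part each played. How transcript estimates were summed to genes is not stated there. Per library 66.6% to 70.5% of low values of genes with 1 transcript lay within 0.1 of a whole number but only 10.9% to 12.5% within 0.01. So 1 unit is close to 1 read, while a scaling for length by the authors is possible and would alter every value per kilobase in the report. Estimated counts keep transcript length, hence the division by length, and depend on how reads were split between similar transcripts. The table lists 25489 genes at 0 in every library.

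CPM were computed from the deposited values over the column sum. For tests, values were rounded to whole numbers and a level above 1 CPM was tested in edgeR 4.0.16 (R 4.3.3) with an intercept-only quasi-likelihood model over all 48425 genes, library size being the column sum, with Benjamini-Hochberg adjustment at 0.05. The biological coefficient of variation was 42.3%. The test was first run on simulated data with 200 changed genes. Log2 values are log2(CPM + 0.5). Lengths are from GENCODE M21 on GRCm38 and promoter sequences from RefSeq. Libraries were compared in pairs over genes of at least 10 counts: chi-square per gene was 10.7 to 26.2, so none repeats another. The labels describe separate animals, and the sign-flip p-values rest on the spread between these 4 alone. The edgeR p-values also draw on an estimate of variation shared over all genes. They depend on the distance from 1 CPM as well, so they do not measure the spread of a gene between animals.

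Alternatives were TMM and DESeq2 size factors (DESeq2 1.42.0), limma 3.58.1 with voom weights, the DESeq2 Wald test, a minimum of 10 counts, a level of 5 CPM, a pseudocount of 0.1 CPM, other transcript lengths and leaving out each animal. The genes, the 5 pathway lists, the marker lists and the tests were chosen with earlier results of these data known. Named are every elastic fibre gene; of each pathway list the 3 highest genes, genes of the pairs and genes with no count; of each marker list the 2 highest and those at 0; and the 3 genes nearest to Efemp1 and to the 10 genes' mean. Ctsv, listed as an elastase, was not analysed here.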

Additional observations from a re-analysis of the deposited data

Results flagged for a closer look

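For 47 genes (the elastic fibre genes and the others named) it was asked whether 1 of the 4 animals lay far from the rest, by Dixon's gap test at its 95% critical value. For values that vary without steps, this singles out about 1 in 20 groups by chance. A gene with counts in only 1 animal always meets it, so that rate does not hold for genes of few counts. Of the 47 genes, 5 met it. Of the elastic fibre genes these were Fbn2, at 0 CPM in animal 3 against 0.209 to 0.236 CPM in the others, and Mfap4, at 0.849 CPM in animal 1 against 0 in the others. Both rest on 3 or 4 counts in all. The integrin chain Itgb1 had 211 CPM in animal 3 against 133 to 144 CPM, and Esam, an adhesion molecule of endothelium, had 377 CPM in animal 1 against 351 to 355 CPM. Reln, a marker of lymphatic endothelium, had 1.06 CPM in animal 1 and 0 in the others, on 5 counts in all. Eln and Mfap5, whose animals fell into a high and a low pair, are not found by this rule.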

How the results depend on the processing

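The 8 elastic fibre genes stayed called above the tested level, and Fbn2 and Mfap4 were not called, under every alternative that was run: TMM and DESeq2 size factors, voom, the DESeq2 Wald test, a minimum of 10 counts (which leaves Fbn2 and Mfap4 untested), a level of 5 CPM and leaving out each animal. The number of genes called in the whole table ran from 9200 at 5 CPM to 12196 with the minimum count, and from 11698 to 11843 without 1 animal. The Mfap2 to Mfap5 log2 difference of 0.23 turned to -1.23 with median transcript lengths, to -0.98 without division by length and to -0.49 with the longest coding transcripts, and ran from -0.028 (without animal 4) to 0.50 without 1 animal. With median lengths Fbn1 minus Fbn2 moved from 6.65 to 2.82, Fbln1 minus Fbln2 from -0.55 to -2.70 and Mfap4 minus Mfap5 from -6.65 to -7.97, and without division by length Fbn1 minus Eln moved from -2.99 to -1.35 and Fbln5 minus Efemp1 from -5.67 to -4.15, all in the same direction. Fbln5 minus Efemp2 turned from -0.81 to 0.34 without division by length. Of the 8 genes, 3 kept their place in the order with median lengths, 5 with the longest coding transcripts and 6 to 8 without 1 animal. The median SD over animals of 0.39 was 0.40 with TMM and 0.31 to 0.46 without 1 animal. Of other named and listed genes, Loxl4, Emilin2, Tll1, Adamts6, Itgb8 and Itga9 missed the 5 CPM level, Adamts6 and Itga9 were also lost without animal 3, and Itga9 was lost with voom. Mmrn2 and Mmp12 were gained without animal 2, and Mmp12 with the minimum count. At this depth a gene at 0 in 1 library may still have a level of up to about 0.7 CPM.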

Other observations

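On the column-sum scale many genes of the pathway lists were lowest in animal 1, the animal in which Eln and Fbln1 were lowest. Among genes with a mean of at least 1 CPM this held for 8 of 10 receptor genes, 7 of 11 genes for latent TGF-beta and ADAMTS proteins and 9 of 18 genes for assembly and cross-linking, against 4104 of 13721 genes overall. It held for 1 of 7 inhibitor genes and 1 of 6 elastase genes. Some of the gaps were small: Ctsa had 154.7 CPM in animal 1 and 158.6 CPM in animal 3, and Glb1 had 84.0 and 85.0 CPM. Emilin1, an elastin interface protein, had 4.34, 29.5, 20.7 and 7.40 CPM in animals 1 to 4, Vcan, the proteoglycan versican that binds fibulins and fibrillin, had 3.05, 16.4, 20.7 and 5.64 CPM, and Tll1, a tolloid-like metalloproteinase that processes procollagen, had 1.57, 8.86, 8.48 and 4.36 CPM. All 3 were high in animals 2 and 3, as Eln and Mfap5 were, and were picked out after their values had been seen. The TMM factors of animals 1 to 4 were 0.962, 1.01, 1.06 and 0.970. Division by these factors raises the values of animal 1 and lowers those of animal 3. The counts of genes lowest in animal 1 were not repeated on that scale and depend on it where gaps are small.

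The genes nearest to the mean deviation of the 10 elastic fibre genes were Nolc1, Cyhr1 and Mmgt2, at root mean square distances of 0.015, 0.024 and 0.024 on the log2 scale, with 290 genes within 0.1. That mean includes Fbn2 and Mfap4, with 3 and 4 counts: in animal 1 it was -0.045, against -0.20 over the 8 called genes, a gap larger than these distances. Nolc1 had 28.6, 34.2, 32.9 and 24.9 CPM in animals 1 to 4.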
